A study of Arabidopsis thaliana with 6 samples.

Results

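A set of 10 genes that respond to cold, drought and abscisic acid (ABA) was followed in seedlings of Arabidopsis thaliana: COR15A (AT2G42540), COR15B (AT2G42530), COR47, RD29A (also called COR78), RD29B (AT5G52300), KIN1 (AT5G15960), KIN2 (AT5G15970), RAB18 (AT5G66400), ERD10 and COR413-PM1. Members were the listed genes that the array platform's annotation ties to a probe set, a group of short probes that together report 1 transcript or a few like ones. This gave 4 probe sets, of 22746 tested, for 5 of the 10 genes: COR15A, COR15B and COR47 each had their own, and KIN1 and KIN2 shared 1. RD29B and RAB18 are named here only through pairs of probe set and locus in the study's supplement, so they are described beside the members and are not counted among them. RD29A, ERD10 and COR413-PM1 are not analysed here.

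Total RNA from the aerial part of 11-day-old seedlings of the Columbia ecotype was hybridised to Affymetrix ATH1 arrays, with 3 biological replicates of eif3k and 3 of wild-type. The eif3k mutant is a single T-DNA line with its insertion in intron 6 of AT4G33250, which encodes the k subunit of eIF3, a factor that helps ribosomes start translation. It was described as making a transcript that lacks its 3′ end and as having no visible seedling phenotype. The labels give 22 °C, 16 h of light, 1% sucrose and harvest 4 h after the lights came on for both genotypes, but the methods name continuous light for eif3k, and the sources used here do not settle which holds. Array data came from a first date for replicates 1 and 2 and from a later date for replicate 3, in either genotype. The comparisons asked how the cold, drought and ABA responsive transcripts stood in eif3k against wild-type, in each same-numbered pair of arrays, and between the array dates.

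In plants, cold induces the CBF transcription factors, which bind the C-repeat/DRE element in the promoters of COR genes. Water shortage raises ABA, and ABA acts through receptors, protein phosphatases, SnRK2 kinases and ABF factors, which bind the ABRE element. Many of the proteins made in response are hydrophilic, among them the dehydrins and other late embryogenesis abundant (LEA) proteins, which protect membranes and proteins while cells lose water. In Arabidopsis shoots the CBF and COR transcripts are also known to follow the time of day.

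The values are log2 signals, so a difference of 1 is 2-fold. The array medians lay between 4.02 and 4.12, and 25.5% to 26.8% of the probe sets of an array were at the lowest value, 2.25. The eIF3k probe set had 6.62 to 7.52 in eif3k and 8.82 to 9.18 in wild-type, a log2 difference of -1.98 with a limma adjusted p of 0.864. Where its probes lie relative to the insertion is not known here, so it checks the labels only in part. The array of eif3k replicate 3 stood apart in the control probe set for 25S rRNA, with 8.13 against 12.04 to 12.87 on the other 5 arrays, and it enters each value for pair 3 and for the later date below. The photosynthesis markers RCA, the activase of Rubisco, and LHCB4.1, a light-harvesting protein, had signals of at least 13.90 on all 6 arrays. Of the 2 root markers matched, EXPA7, a root hair expansin, was at most 2.26, while PYK10, a root and hypocotyl glucosidase, had 10.40 to 11.61.

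COR15A and COR15B lie next to each other on the same chromosome and encode LEA-type proteins of the chloroplast stroma that stabilise membranes during freezing. The COR15A signal was 7.06, 7.40 and 2.90 in eif3k replicates 1, 2 and 3, and 6.19, 6.98 and 4.32 in the wild-type replicates. Both replicate 3 arrays were thus lower than all 4 arrays of the first date, and the genotypes overlapped. The COR15B signal was 5.63, 4.80 and 5.06 in eif3k and 5.09, 5.28 and 7.08 in wild-type. Only the wild-type replicate 3 array was high for COR15B, so the neighbouring genes went opposite ways on that array, COR15A to its lowest wild-type signal and COR15B to its highest.

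COR47 and RAB18 encode dehydrins, the first abundant after cold and the second named for its response to ABA. The COR47 signal was 8.36, 9.16 and 9.20 in eif3k and 8.41, 8.48 and 8.41 in wild-type. It was nearly level in wild-type, with an SD of 0.04 (n = 3), and higher on 2 of the 3 eif3k arrays. The RAB18 signal was 7.45, 8.66 and 5.72 in eif3k and 8.42, 8.02 and 7.27 in wild-type. Both replicate 3 arrays had less RAB18 signal than any first-date array, and the lowest was again that of eif3k.

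KIN1 and KIN2 are adjacent genes for small hydrophilic proteins induced by cold and ABA, and their shared probe set cannot tell them apart. Its signal was 9.71, 10.23 and 9.35 in eif3k and 9.69, 9.92 and 11.29 in wild-type. As with COR15B, the wild-type array of replicate 3 was the highest of the 6, and here the eif3k array of replicate 3 was the lowest. RD29B encodes a hydrophilic protein and is known for its strong dependence on ABA. Its signal was 5.15, 7.86 and 4.49 in eif3k and 5.39, 6.85 and 6.26 in wild-type, so that replicate 2 was highest in both genotypes.

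**Figure D1:**
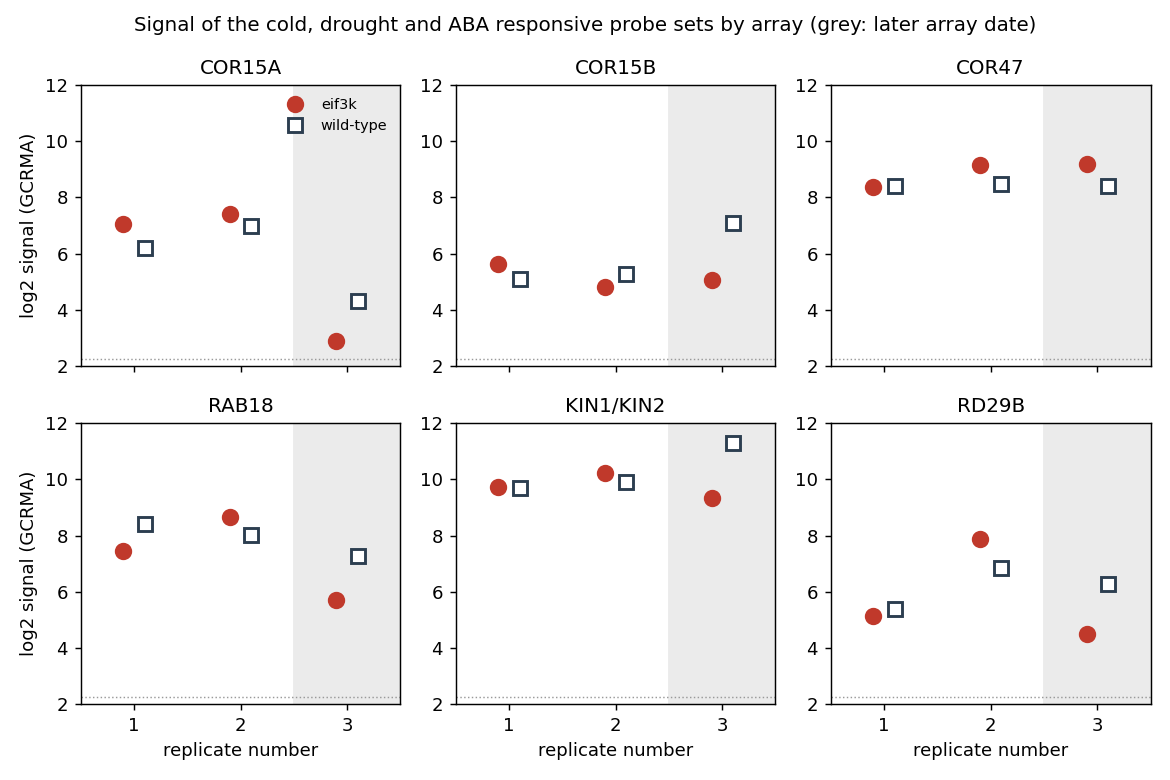
Log2 signal (vertical axis) on each of the 6 arrays by replicate number (horizontal axis), with filled circles for eif3k and open squares for wild-type. The shaded replicate 3 arrays are those of the later date and the dotted line is the lowest signal, 2.25. COR15A drops to 2.90 and 4.32 on the later date in both genotypes, while COR15B and KIN1/KIN2 reach 7.08 and 11.29 on the wild-type array alone.

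Of the 4 members, 3 ranged over at least 2-fold between arrays (all but COR47), as did RD29B and RAB18, and 14.6% of all probe sets did. Of all 22746 probe sets, 8863 stayed under 3 on every array, as 0 of the 4 members did. The shares of all probe sets given here and below therefore include many dim ones with little room to differ. The widest range was that of COR15A, at 4.50 on the log2 scale, followed by RD29B at 3.37 and RAB18 at 2.94.

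None of the members passed the test of the genotype difference over all replicates. A probe set passed at a limma adjusted p below 0.05 if the genotypes also differed by 2-fold or more, and 0 of 4 members passed, against 0% of all probe sets. With limma, 694 of all probe sets and none of the members had an unadjusted p under 0.05. The mean log2 signal of COR47 was 8.91 ± 0.47 (SD, n = 3) in eif3k and 8.43 ± 0.04 in wild-type, a difference of 0.47 with a standard error of 0.26. COR15B had a difference of -0.65 with a standard error of 0.65, KIN1/KIN2 one of -0.54 with 0.54, and COR15A one of -0.04 with 1.57. RAB18 had -0.63 with a standard error of 0.88 and RD29B -0.33 with 1.06. The limma adjusted p was 1.00 for each of these 6 probe sets. The median difference was -0.29 over the 4 members and 0 over all probe sets. No member had all eif3k arrays on one side of all wild-type arrays, as 5.02% of all probe sets had.

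The genotype difference was also taken within each pair of arrays. In pair 1 the log2 difference (eif3k minus wild-type) was 0.87 for COR15A, 0.54 for COR15B, -0.05 for COR47 and 0.02 for KIN1/KIN2. In pair 2 it was 0.42, -0.48, 0.68 and 0.31 for the same probe sets. No member reached 2-fold in either of these pairs, in which 1.24% and 1.15% of all probe sets did. Within the first date the pairs rest on replicate numbers alone, which show no closer pairing. Across them, COR15A was over 2-fold higher in eif3k replicate 2 (7.40) than in wild-type replicate 1 (6.19). In pair 3 the difference was -1.42 for COR15A, -2.02 for COR15B and -1.94 for KIN1/KIN2, which is 2.68-fold, 4.06-fold and 3.84-fold lower in eif3k, and 0.79 for COR47. Thus 3 of the 4 members were at least 2-fold lower in eif3k in pair 3, where 1.55% of all probe sets were, and 0 were at least 2-fold higher, where 2.22% of all were. RD29B and RAB18 were at least 2-fold lower there too, by log2 differences of -1.77 and -1.55, after -0.24 and -0.97 in pair 1 and 1.01 and 0.64 in pair 2. The median difference of the 4 members was 0.28, 0.37 and -1.68 in pairs 1, 2 and 3, against 0 for all probe sets in each pair. Each pair holds 1 array of a genotype, so these differences have no replicate check within a pair. The members were chosen with earlier results of these data known, so the shares beside all probe sets are descriptive only.

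**Figure D2:**
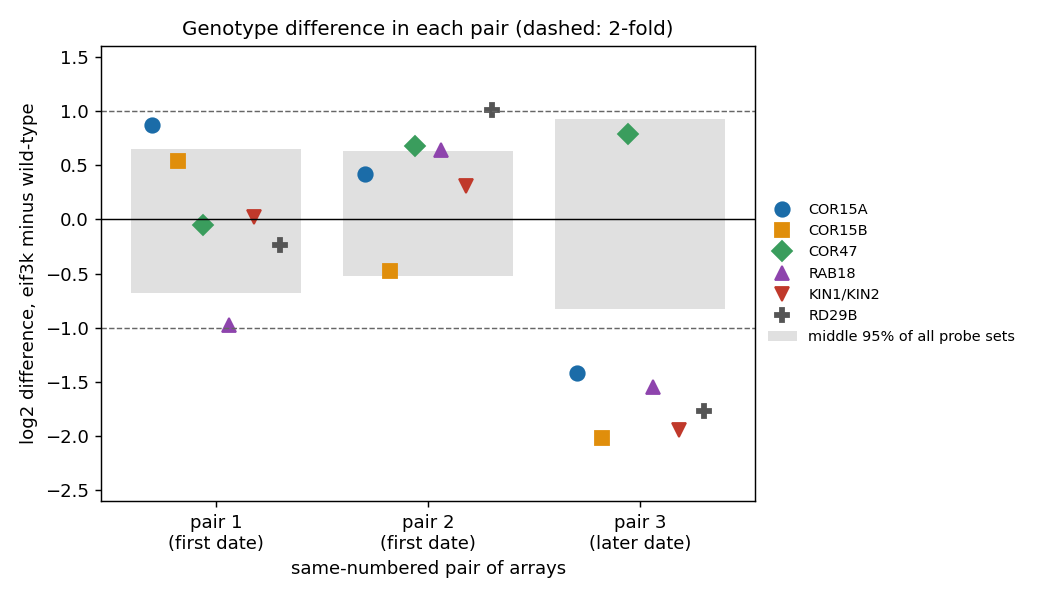
Log2 difference, eif3k minus wild-type (vertical axis), of the 4 member probe sets and of RAB18 and RD29B in each same-numbered pair of arrays (horizontal axis). Grey bars span all probe sets but the 2.5% lowest and the 2.5% highest, and dashed lines mark 2-fold. In pair 3, 5 of the 6 points lie between -1.42 and -2.02, below the bar, and COR47 lies at 0.79.

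The low pair 3 values were made up differently for different genes. From the mean of replicates 1 and 2 to replicate 3, COR15A differed by -4.33 in eif3k and by -2.27 in wild-type, and RAB18 by -2.33 and -0.95, so both genotypes were lower and eif3k more so. COR15B differed by -0.16 in eif3k and by 1.90 in wild-type, and KIN1/KIN2 by -0.62 and 1.49. For these 2 probe sets most of the pair 3 difference was a high wild-type signal. RD29B differed by -2.01 in eif3k and 0.14 in wild-type, and the former rests on the high eif3k replicate 2 (7.86), since replicates 1 and 3 had 5.15 and 4.49.

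The array dates were compared with genotype in the same model. COR15A had the largest date difference of the 6 probe sets: the later arrays had a mean log2 signal of 3.61 against 6.91 ± 0.51 (SD, n = 4) on the first date, a difference of -3.30 (standard error 0.63) or 9.83-fold. It did not pass (limma adjusted p = 0.170), and neither did another member. Of all probe sets, 0.11% were called lower and 0.224% higher on the later date. That small count was unstable, from 0 to 201 probe sets as single arrays were left out. When only the brighter probe sets were tested, those whose 6-array mean exceeded 4.09, the median of such means, the COR15A difference passed (limma adjusted p = 0.0196), as 1 of 4 members and with 1.87% of the brighter ones called lower and 2.26% called higher. COR15A met this filter through its high first-date arrays, since its later mean of 3.61 lay under 4.09, so the pass is no separate support. The COR15A difference passed under no other alternative tried. Its limma adjusted p was 0.0976 without genotype in the model and 0.346 with a trended robust prior. Leaving out the later wild-type array made the difference -4.33, and leaving out the later eif3k array made it -2.27. RAB18 had a date difference of -1.64 with a standard error of 0.57 and an adjusted p of 0.355 by limma, or 0.0742 among the brighter ones. It was -2.33 when the later wild-type array was dropped and -0.95 when the later eif3k array was. COR15B had 0.87, KIN1/KIN2 0.43, COR47 0.20 and RD29B -0.94, each with an adjusted p of at least 0.634. COR15A was the 1 member of 4 with both later arrays below all 4 first-date arrays, which 10.3% of all probe sets showed, and 0 of 4 lay above, where 10.6% did.

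The difference between the genotype differences of the later and the first date (the interaction) was -2.07 for COR15A, -2.05 for COR15B and -2.11 for KIN1/KIN2, with standard errors of 0.68, 0.68 and 0.45. For COR47 it was 0.47 with a standard error of 0.64, for RD29B -2.15 with 2.45, and for RAB18 -1.39 with 1.01. These last 3 moved by over 1.5 times as single first-date arrays were left out. RD29B ran from -3.51 without eif3k replicate 1 to -0.80 without eif3k replicate 2, RAB18 from -1.99 to -0.78 and COR47 from 0.075 to 0.875 without the same arrays. None of the members passed with limma: the smallest adjusted p was 0.293, for KIN1/KIN2, and 0.492% of all probe sets were called. COR15A and KIN1/KIN2 had positive differences in pairs 1 and 2 and a negative one in pair 3, as 5.82% of all probe sets had. For KIN1/KIN2 this depends on how the first-date arrays were numbered, since eif3k replicate 1 (9.71) lay under wild-type replicate 2 (9.92). On the later date there was 1 array of each genotype, which this fit takes to vary like those of the first date. The array of wild-type replicate 3 also stood apart, with a 3′ GAPDH control signal 5.02 above the 5′ one, against 3.92 to 4.18 on the others. The genotype difference on the later date cannot be told apart here from the deviations of single later arrays. These were in 25S rRNA for eif3k replicate 3 and in the GAPDH control for wild-type replicate 3.

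**Figure D3:**
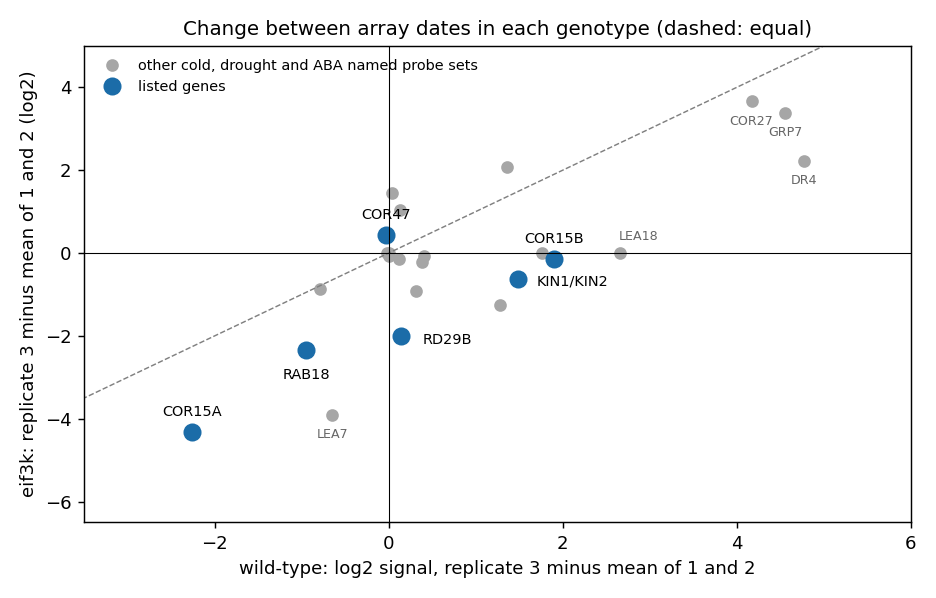
Log2 difference of replicate 3 (later date) from the mean of replicates 1 and 2 (first date) in wild-type (horizontal axis) and eif3k (vertical axis), with the listed genes in blue and 18 further probe sets with a cold, drought, ABA or LEA name in grey. Points on the dashed line have equal differences in both genotypes. COR15A lies low in both (-2.27 and -4.33), KIN1/KIN2 and COR15B lie to the right of the line, and COR27, GRP7 and DR4 lie high in both.

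The upstream genes of these responses could hardly be followed. Of 12 genes of ABA synthesis and turnover and 28 of ABA perception and signalling, 0 had a named probe set, and of 16 cold regulators 3 had, through 4 probe sets. ICE2, a regulator of CBF transcription, had 8.41, 8.17 and 7.47 in eif3k and 8.56, 8.48 and 8.21 in wild-type. It had a genotype difference of -0.40 and a date difference of -0.57. ZAT10, a zinc finger repressor induced by several stresses, stayed under 3 on all arrays, with differences of 0.24 and 0.23. SIZ1, a SUMO ligase that acts on ICE1, had the other 2 probe sets. The CBF genes themselves were not among the named probe sets. None of the 4 probe sets passed in either comparison with limma, though 2 had an unadjusted p under 0.05 for the array date, as 3321 of all 22746 had, and 0 for the genotype.

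Among 30 other genes known to respond to cold, drought or ABA, 5 were named, and with limma 0 of 5 passed, or had an unadjusted p under 0.05, in any of the 3 comparisons. All 5 had lower signals in eif3k in pair 3, where 7395 of all 22746 probe sets had, and 3 of them were lower by at least 2-fold, against 1.55% of all. LEA7, a LEA protein gene, had 3.68, 8.91 and 2.39 in eif3k and 6.29, 7.45 and 6.22 in wild-type. It was highest in replicate 2 of both genotypes and lowest in eif3k replicate 3, in the same order as RD29B within eif3k. LTI30, a dehydrin gene induced by cold and ABA, had 4.51, 6.22 and 4.12 in eif3k and 3.97, 3.84 and 5.18 in wild-type. TSPO, a membrane protein gene induced by ABA, had 3.47, 4.43 and 3.51 in eif3k and 3.48, 3.54 and 5.51 in wild-type. Like COR15B and KIN1/KIN2, LTI30 and TSPO had their highest wild-type signal on the replicate 3 array. The medians of this list were 0.00, 0.89 and -1.06 in pairs 1, 2 and 3.

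A wider set of 18 probe sets was taken by name, as those whose gene symbol or synonyms hold a word for cold, drought, dehydration, ABA or LEA. It was drawn up after the files were opened and before its own values were looked at. It shares LTI30, LEA4-5 and LEA7 with the list above, and GRP7 with the clock genes described below. Its medians in the 3 pairs were 0.00, 0.04 and -0.51, and in pair 3 6 of 18 were at least 2-fold lower in eif3k and 1, SRC2, was higher, at 1.46, against 1.55% and 2.22% of all probe sets. These 6 include LEA7 and LTI30, counted above, and LEA3, which was lower in eif3k in every pair (-1.03, -0.48 and -1.01). None of the 18 passed for the genotype. LEA3 was the 1 of 18 with an unadjusted limma p under 0.05 there (0.0299), as 694 of all 22746 had. On the array date, where 0.224% of all probe sets were called higher and 0.11% lower, 1 of 18 passed: COR27, a cold-regulated gene with roles in the clock and in freezing tolerance, which was at the lowest value, 2.25, on all 4 first-date arrays and had 5.91 in eif3k and 6.42 in wild-type on the later date (limma adjusted p = 0.0220). This call was lost without any 1 of the 4 first-date arrays, with an adjusted p of 0.0901 to 0.149. GRP7, an RNA-binding protein regulated by cold and the clock, had 8.11, 7.01 and 10.95 in eif3k and 7.52, 7.08 and 11.86 in wild-type. DR4, named as drought-repressed, had 6.97, 6.54 and 8.98 in eif3k and 5.94, 4.95 and 10.22 in wild-type. DI19, named as drought-induced, had 9.77, 9.86 and 11.88 in eif3k and 10.37, 10.04 and 11.57 in wild-type. These 3 were called higher on the later date when the brighter probe sets alone were tested, which hold 11 of the 18. Their limma adjusted p was 0.00836, 0.0255 and 0.0109, and 2.26% of all brighter probe sets were called higher. COR15A, which met that filter through its first-date arrays, was the listed gene called lower there, as 1.87% of the brighter ones were. LEA18 and AtLEA4-1 were at 2.25 and 2.41 on 5 arrays and had signals of 4.91 and 4.17 on the array of wild-type replicate 3 alone. Their interactions were -2.66 and -1.76, with first-date arrays that did not vary at all.

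Genes that mark the time of day, seed tissue and RNA integrity also differed between these arrays, and their part in the results for the cold, drought and ABA responsive genes was not tested. Of 12 clock genes 5 were named, which are CCA1, LHY, GI, LUX and GRP7. Their mean signal was 6.53 to 6.85 on the first-date arrays and 7.92 to 8.03 on the later ones. LUX and GRP7 carried this rise, with date differences of 3.45 and 3.975. LHY had 0.51, CCA1 -1.23 and GI -0.33, so the mean does not stand for a shift of all 5 in 1 direction. Whether their phase differed between the dates was not tested. The probe set shared by LUX, a gene that peaks in the evening, and BOA had 2.31 to 2.37 on the first date and 5.96 and 5.62 on the later one (limma adjusted p = 0.0204), a call lost without any 1 of the first-date arrays, with an adjusted p of 0.0766 to 0.113. The morning gene CCA1 had 9.40 to 10.40 on the first date and 8.84 and 8.69 on the later one, with an adjusted p of 0.0363 among the brighter probe sets, and LHY had 7.34 to 8.76 and then 9.20 and 8.16. GI, which peaks in the afternoon, had 5.19 to 6.08 and then 5.19 and 5.25. COR15A was thus low on the arrays on which GRP7, COR27 and the LUX and BOA probe set were high. Of 14 seed genes 5 were named, with a mean signal of 2.69 to 2.77 on 3 arrays and of 4.90, 4.54 and 5.72 on those of eif3k replicate 2, eif3k replicate 3 and wild-type replicate 3. The storage protein genes CRA1 and CRU3 carried most of this, at 7.58 and 7.22 in eif3k replicate 2, 7.43 and 6.92 in eif3k replicate 3, and 8.93 and 7.33 in wild-type replicate 3, against at most 2.98 elsewhere. The median genotype differences of these 5 seed genes were 0.22, 1.42 and -1.50 in pairs 1, 2 and 3. In pair 3, 3 of 5 were at least 2-fold lower in eif3k, against 1.55% of all probe sets. Low pair 3 values were thus not particular to the cold, drought and ABA responsive genes. In whole shoots, fewer cells of a type and less RNA per cell cannot be told apart. The GAPDH control had a 3′ signal 5.02 above its 5′ signal on the wild-type replicate 3 array and 3.92 to 4.18 on the others. Of 6 touch and wound genes, 0 were named.

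The probe sets closest to the median profile of the 4 members over the 6 arrays were sought among 11369 brighter ones. The measure was the root mean square difference from that profile, with signals centred on each probe set's mean. That profile was low on the eif3k replicate 3 array (-0.56) and high on that of wild-type replicate 3 (0.50). Not every member followed it. COR15A had 4.32 on the wild-type replicate 3 array, under its mean of 5.81. COR47 had 9.20 on the eif3k replicate 3 array, over its mean of 8.67. The 5 closest differed from it by 0.114 to 0.143. They included AT3G02490, with 5.59, 5.86 and 4.96 in eif3k and 5.36, 5.72 and 6.15 in wild-type, and TRZ3, a gene named for tRNase Z, with 5.92, 6.13 and 5.52 and 5.77, 5.93 and 6.26. The other 3 are unnamed here. Neither of the 2 named genes is in the lists of cold, drought and ABA genes.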

How the data were processed

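The deposited values are log2 signals per probe set, which the authors made with GCRMA per the labels (version: not given in the sources used here). That the base is 2 follows from GCRMA and from how far the values reach. GCRMA models background from each probe's base composition, scales all arrays together and gives dim probe sets a common minimum. The methods of the study chose RMA after comparing it with GCRMA. The 64 control probe sets among 22810 were not used, which leaves 22746 for the tests. The platform annotation named 14016, the study's supplement a further 545, and 8185 are unnamed here. Gene names came from RefSeq (TAIR10.1). Groups and array dates came from the labels. Genotype, array date (with genotype in the model) and their interaction were tested on all 6 arrays, 2-sided, using the R package limma (3.58.1, R 4.3.3), and p-values were adjusted by Benjamini-Hochberg across the tested probe sets. A call needed an adjusted p under 0.05 and at least 2-fold. The test was tried on simulated data with known changes, where the check made was on the mean size of the estimates. It does not show how often a true change would be called with so few arrays. The number of arrays limits the precision. The members and lists were chosen with earlier results of these data known. Named genes were every member, the 2 genes with the largest date and the 2 with the largest genotype difference in each other list, eIF3k, and the 5 most alike probe sets. Genes of the wider set taken by name, and SIZ1, were picked after their values were seen. Same-numbered arrays were treated as pairs, since number 3 marks its own array date, and the departures from each genotype's mean had correlations of 0.247, 0.378 and 0.542 in the same-numbered pairs. These run over probe sets, not over independent samples. Unlike numbers within the first date correlated alike (0.308 and 0.395), so the numbers show a shared date and no closer pairing. Alternatives were blocks, the first date alone, scaling, filters on dim probe sets, variance prior, array weights, the call rule and leaving out each array.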

Additional observations from a re-analysis of the deposited data

Results flagged for a closer look

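The genotype difference went one way in both first-date pairs and the other way on the later date for COR15A (0.87, 0.42 and -1.42 in pairs 1, 2 and 3) and for the KIN1/KIN2 probe set (0.02, 0.31 and -1.94). For KIN1/KIN2 the shared sign depends on how the first-date arrays were numbered. Its eif3k replicate 1 signal (9.71) lay under that of wild-type replicate 2 (9.92). The test of the change between dates, the interaction, gave -2.07 for COR15A and -2.11 for KIN1/KIN2 and did not pass with limma for either (adjusted p of 0.453 and 0.293). Also flagged, of the 18 related probe sets taken by name, were LEA18 at -2.66 and AtLEA4-1 at -1.76. These had 2.25 and 2.41 on 5 arrays and a higher signal on that of wild-type replicate 3 alone. So was COR27 at -0.51, which is under 2-fold and whose 4 first-date arrays were all at the lowest value.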

How the results depend on the processing

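The genotype count stayed at 0 under every alternative tried, with the replicate number as a block (1089 at an unadjusted p under 0.05) and with each array left out. The median genotype difference of the members was -0.29 with the replicate block, 0.24 on the first date alone, 0.26 with array weights, and between -0.62 and -0.0017 as each array was left out. On the first date alone the difference turned to 0.65 for COR15A, 0.03 for COR15B, 0.39 for RD29B and 0.17 for KIN1/KIN2, and with array weights to 0.60 for COR15A, 0.74 for RD29B and 0.012 for KIN1/KIN2. As single arrays were left out it ran from -0.85 to 1.40 for COR15A, -1.02 to -0.02 for COR15B, -1.35 to 0.34 for RD29B, -1.32 to 0.15 for RAB18, 0.33 to 0.75 for COR47 and -0.84 to -0.04 for KIN1/KIN2, whose smallest value came without wild-type replicate 3. The date difference then ran from -0.16 to 1.90 for COR15B, -0.035 to 0.44 for COR47, -2.01 to 0.14 for RD29B and -0.62 to 1.49 for KIN1/KIN2, while COR15A stayed between -4.33 and -2.27 and RAB18 between -2.33 and -0.95. The interaction ran from -2.46 to -1.67 for COR15A, -2.46 to -1.64 for COR15B and -2.37 to -1.84 for KIN1/KIN2.

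The number of probe sets called by date was 76 (67.1% higher), 129 without genotype in the model, 160 with median centring (56.2% higher), 470 among brighter probe sets (54.7% higher), 4 with a trended robust prior (all higher), 156 by adjusted p alone, and 0 to 201 as arrays were left out. The interaction called 112, 65 with median centring, 0 among the brighter ones, and 102 to 169 as first-date arrays were left out. The cause of these changes was not tested, except that fewer probe sets were tested among the brighter ones. The 3 members at least 2-fold lower in pair 3 were 3 under both other scalings. The block changed no other call. Precision was limited by having 2 later arrays, 1 of each genotype, and differences below the lowest signal cannot be seen.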
